A study of Arabidopsis thaliana with 11 samples.

Results

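The circadian clock core genes followed here are 10 loci of Arabidopsis thaliana: LHY (AT1G01060), CCA1 (AT2G46830), RVE8 (AT3G09600), PRR9 (AT2G46790), PRR7 (AT5G02810), PRR5 (AT5G24470), TOC1 (AT5G61380), GI (AT1G22770), ELF4 (AT2G40080) and LUX (AT3G46640). They were chosen by locus name, and all 10 were found among the 28718 loci of the authors' deposited table and among the probes of the arrays. Guard-cell-enriched samples came from accession Columbia-0, and guard cells are the epidermal pair whose swelling opens each stoma. In the 3x salt group, pots were soaked for 2 h a day with 75 mM NaCl (days 1 and 2), then 150 mM (days 7 and 8), then 200 mM (days 13 and 14). The 1x salt group had the 200 mM round alone, and tap water served for the no-salt group. All plants were wild type, 6 to 7 weeks old by their labels, grown in 12 h of light at 22 °C and darkness at 16 °C, and harvested on day 15 after 4 h of light. Each sample had its own 1-colour array, with 4 samples for no salt, 3 for 1x salt and 4 for 3x salt. The labels do not say how many plants a sample pooled or whether samples of a group came from separate preparations, so the p-values here reflect the spread among samples as labelled, and that spread may be technical.

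The plant clock is a set of transcription factors that repress or activate each other in a daily sequence. CCA1 and LHY are related MYB factors that peak around dawn and repress evening genes, and the pseudo-response regulators PRR9, PRR7 and PRR5 then follow one another through the day and repress CCA1 and LHY. TOC1, a further member of that family, and the evening complex of ELF3, ELF4 and LUX act around dusk. At harvest, in the first part of the light period, dawn genes are normally past their peak and evening genes are normally still to reach theirs. In the leaf epidermis the clock is known to contribute to the daily timing of stomatal opening.

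The 10 genes did not all move one way under salt. CCA1, RVE8 and PRR9, expressed from dawn into the morning, were lower on all 7 salt arrays than on all 4 no-salt arrays, though not in the authors' deposited table, as given further on. ELF4 and LUX, 2 parts of the evening complex, were higher on all 7. Separation from no salt was common: 13.0% of all genes were lower without overlap in 1x salt and 23.6% in 3x salt. The shares higher without overlap were 16.8% and 28.1%, and the share for all 7 salt arrays together was not computed. PRR5 and TOC1 were higher on all 4 3x salt arrays and on 2 of the 3 1x salt arrays, while GI, PRR7 and LHY showed smaller or less uniform differences. The 1x salt array that did not follow in PRR5 and TOC1 was array 1.

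Every member was well above background on all 11 arrays, and no member lacked a value on any array. The 75th percentile of the processed signal, by which each array was scaled, lay between 1342 and 2854 intensity units, and 66.2% to 80.3% of spots were well above background. On 1x salt array 3 this share was highest, and 442 of its spots were outliers where the other arrays had 9 to 38. Values below are log2 signals relative to the 75th percentile of the array, so 0 is the level of that percentile and -1 a signal lower by 1 on the log2 scale. Signals of different genes come from different probes and are not set against each other. All 10 guard cell markers examined, among them FAMA, MYB60, KAT1 and SLAC1, were well above background on all arrays. So were 12 of 12 vascular markers, 8 of 8 photosynthesis genes rich in mesophyll and 7 of 8 pavement cell and trichome markers, so the samples also held RNA of genes that mark other leaf cells. In such bulk samples, fewer cells of a type and less RNA per cell cannot be told apart.

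CCA1, the dawn MYB factor whose protein binds the promoters of evening genes, stood at 1.60, 1.51, 1.65 and 1.75 on no-salt arrays 1 to 4. It stood at 1.29, 0.69 and 0.81 on the 1x salt arrays and at 1.25, 1.37, 0.39 and 0.42 on the 3x salt arrays. No salt array overlapped with the no-salt range, but 1x array 1 and 3x arrays 1 and 2 lay just beneath it while the other 4 salt arrays lay well below. The difference from no salt was -0.70 in 1x salt (SE 0.25, limma adjusted p = 0.0887) and -0.77 in 3x salt (SE 0.24, adjusted p = 0.0197). LHY, the closest relative of CCA1 and its partner in repression, was at -0.30, -0.43, -0.45 and -0.49 in no salt. Its values were 0.01, -1.20 and -0.67 in 1x salt and -0.37, -0.35, -1.15 and -1.14 in 3x salt. For LHY the groups overlapped, because 1x array 1 and 3x arrays 1 and 2 lay within or above the no-salt range. Its difference was -0.21 in 1x salt (95% interval -0.85 to 0.44, adjusted p = 0.683) and -0.34 in 3x salt (-0.93 to 0.26, adjusted p = 0.32), so a fall of the size seen in CCA1 lies inside the intervals.

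RVE8, a MYB factor of the same family that activates evening genes, was measured at -2.79, -2.95, -2.94 and -3.20 in no salt. It was at -3.41, -4.03 and -3.81 in 1x salt and at -3.52, -3.77, -4.11 and -4.53 in 3x salt. All salt arrays lay below all no-salt arrays, and the 3x salt arrays 3 and 4 were the lowest of the 11. RVE8 fell by 0.78 in 1x salt (SE 0.23, adjusted p = 0.0445) and by 1.01 in 3x salt (SE 0.21, adjusted p = 0.00304), a 2.02-fold lower signal in 3x salt.

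PRR9, the earliest of the pseudo-response regulators after dawn, was at -1.33, -1.71, -1.78 and -1.79 in no salt. It was at -1.96, -2.55 and -2.43 in 1x salt and at -2.10, -2.35, -2.77 and -2.92 in 3x salt. Its groups did not overlap between salt and no salt, and its 7 salt arrays stood in the same order as those of RVE8. The difference was -0.66 in 1x salt (SE 0.22, adjusted p = 0.064) and -0.88 in 3x salt (SE 0.20, adjusted p = 0.00464). PRR7, which follows PRR9 towards midday, was at 2.73, 2.38, 2.52 and 2.39 in no salt, 2.51, 2.35 and 2.58 in 1x salt, and 2.38, 2.25, 2.26 and 2.00 in 3x salt. Its values overlapped in both comparisons, with the lowest of all arrays in 3x salt. The differences were -0.03 in 1x salt (SE 0.12, adjusted p = 0.901) and -0.28 in 3x salt (SE 0.11, adjusted p = 0.0493). That PRR7 call was lost with 10 of the 11 single arrays left out, all but 3x array 1 (adjusted p 0.0511 to 0.13). The second PRR7 probe showed -0.05, and the authors' deposited table gave 0.02 (adjusted p = 0.959).

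PRR5, the afternoon pseudo-response regulator, went the other way from PRR9. It was at 0.42, 0.36, 0.50 and 0.57 in no salt, at -0.02, 0.91 and 1.43 in 1x salt, and at 1.39, 1.25, 1.60 and 1.59 in 3x salt. The 1x salt arrays spanned from below the no-salt range to the 3x salt range, while the 3x salt arrays lay together above all no-salt arrays. PRR5 was 0.31 higher in 1x salt (95% interval -0.29 to 0.91, adjusted p = 0.476) and rose by 1.00 in 3x salt (SE 0.25, adjusted p = 0.00764), which is 2.00-fold. TOC1, which represses CCA1 and LHY from the evening side, was at -0.86, -0.72, -0.87 and -0.66 in no salt. It was at -0.82, -0.15 and -0.05 in 1x salt and at -0.14, -0.24, 0.40 and 0.39 in 3x salt. Again 1x array 1 lay inside the no-salt range and the other 6 salt arrays lay above it. The difference was 0.44 in 1x salt (-0.04 to 0.91, adjusted p = 0.193), and TOC1 rose by 0.88 in 3x salt (SE 0.20, adjusted p = 0.00411).

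GI, a large protein that stabilises the F-box photoreceptor ZTL and links the clock to flowering, had almost the same signal on all arrays. It was at 1.30, 1.23, 1.20 and 1.34 in no salt, at 1.33, 1.12 and 1.20 in 1x salt, and at 1.23, 1.21, 1.30 and 1.20 in 3x salt. The differences were -0.05 in 1x salt (95% interval -0.21 to 0.11, adjusted p = 0.662) and -0.03 in 3x salt (-0.18 to 0.11, adjusted p = 0.688). For its brightest probe, changes as large as those of PRR5 or TOC1 in 3x salt thus lay outside the interval. A second, dimmer GI probe was lower in 3x salt by -0.30.

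ELF4, a small protein of the evening complex, showed the highest rise among the 10 in 3x salt. It was at 0.56, 1.05, 0.89 and 0.91 in no salt, at 1.48, 2.12 and 2.19 in 1x salt, and at 2.56, 2.60, 3.12 and 3.31 in 3x salt. The 3 groups were in full order, with no overlap between any 2 of them. By limma, ELF4 rose by 1.08 in 1x salt (SE 0.23, adjusted p = 0.0121) and by 2.05 in 3x salt (SE 0.21, adjusted p = 6e-05), which are 2.11-fold and 4.13-fold. It was also the only member called between the salt regimes, at 0.97 higher in 3x than in 1x salt (SE 0.23, adjusted p = 0.00855). LUX, the DNA-binding part of the evening complex, was at -1.61, -1.31, -1.46 and -1.37 in no salt, at -1.04, 0.48 and 0.44 in 1x salt, and at 0.04, -0.08, 0.62 and 0.73 in 3x salt. All salt arrays lay above all no-salt arrays, and 1x array 1 was nearest to them. LUX rose by 1.39 in 1x salt (SE 0.35, adjusted p = 0.0237) and by 1.76 in 3x salt (SE 0.33, adjusted p = 0.00145), the latter 3.39-fold. Its 2 probes gave 1.39 and 1.34 in 1x salt and 1.76 and 1.44 in 3x salt.

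**Figure D1:**
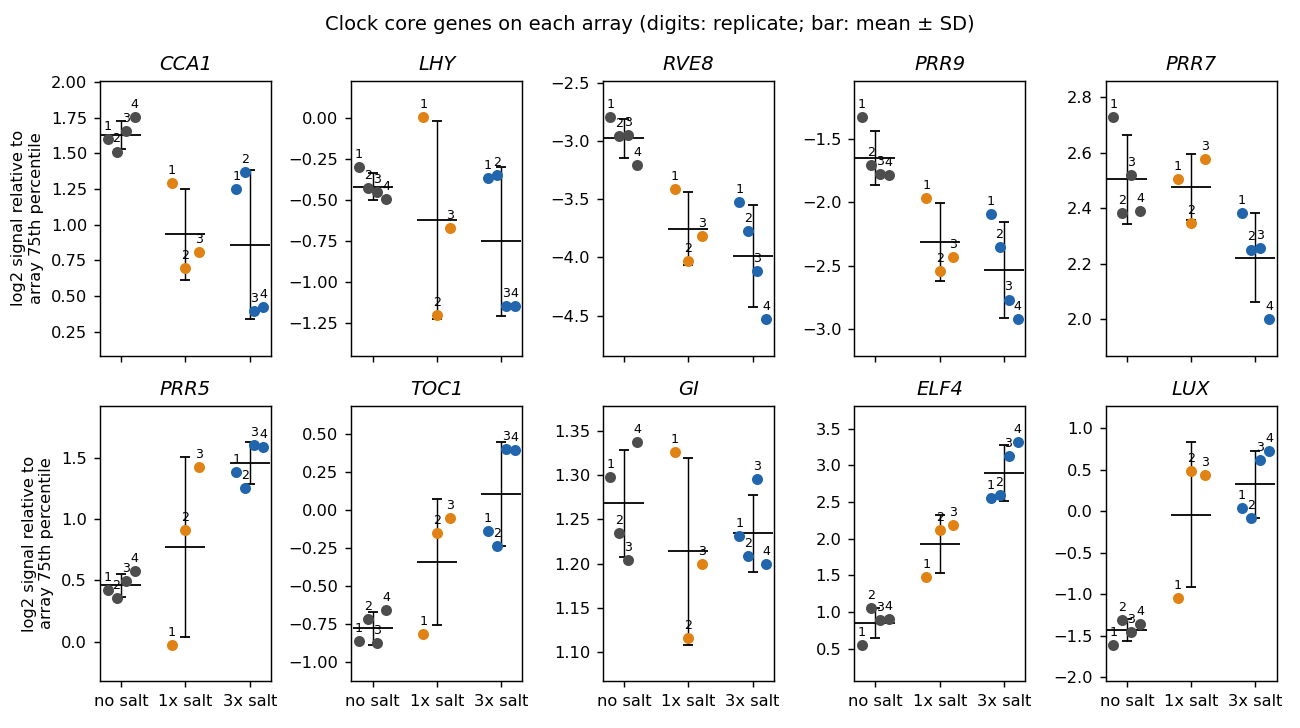
Log2 signal of each clock core gene relative to the array's 75th percentile (vertical axis, own range per panel) on the 4 no-salt (grey), 3 1x salt (orange) and 4 3x salt (blue) arrays, with digits giving the replicate and bars the mean ± SD. CCA1, RVE8 and PRR9 lie lower and ELF4 and LUX higher on all salt arrays, and 1x salt array 1 lies within the no-salt range for TOC1. Of all genes, 13.0% in 1x salt and 23.6% in 3x salt were lower than no salt without overlap, and 16.8% and 28.1% higher.

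In 1x salt set against no salt, 3 of the 10 genes passed at an adjusted p below 0.05, with ELF4 and LUX higher and RVE8 lower. Of all 23458 genes tested, 16.9% passed, 9.21% higher and 7.68% lower. CCA1, RVE8 and PRR9 were lower without overlap between the arrays, against 13.0% of all genes, and ELF4 and LUX were higher without overlap, against 16.8%. The median difference over the 10 genes was -0.04, beside 0.04 over all genes tested, since falls and rises balanced.

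These calls rest heavily on single 1x salt arrays, as do those over all genes. Of the 23458 genes tested, 5580 passed without 1x array 1, 2277 without 1x array 3 and 2565 without 1x array 2, beside 3962 with all arrays. Without 1x array 1, 7 of the 10 passed: CCA1 (-0.88, adjusted p = 0.0461), PRR9 (-0.84, 0.0276), PRR5 (0.71, 0.0115) and TOC1 (0.68, 0.0305) joined RVE8, ELF4 and LUX. Without 1x array 3 limma called none of the 10, where 4 had an unadjusted p below 0.05, with ELF4 at an adjusted p of 0.0527, LUX at 0.0935 and RVE8 at 0.123. Without 1x array 2 ELF4 alone passed, with LUX at 0.0895 and RVE8 at 0.15. Leaving out any 1 no-salt array also ended the RVE8 call (0.0593 to 0.0964), as did leaving out 3x array 2 or 3 (0.0535 and 0.057). The LUX call ended without no-salt array 1, 3 or 4 (0.0508 to 0.0567). PRR9 passed without 3x array 1 (0.0457).

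In 3x salt set against no salt, 8 of the 10 genes passed. PRR5, TOC1, ELF4 and LUX rose, and CCA1, RVE8, PRR9 and PRR7 fell, while LHY and GI did not pass. Among all genes tested 51.4% passed, 27.9% higher and 23.6% lower, so a call as such was common in this comparison. Arrays did not overlap for 4 members that rose (28.1% of all genes) and 3 that fell (23.6%). The median over the 10 genes was -0.16, beside 0.04 over all genes. Leaving out 1 array kept 6 to 8 of the calls: CCA1 was lost without 3x array 3 (-0.62, adjusted p = 0.0519) or 4 (-0.63, 0.0546), and PRR7 as given above. Calls over all genes then ran from 10439 to 12766, beside 12067 with all arrays.

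Arrays of a group fell into close subsets in earlier results of these data, namely no-salt arrays 2 to 4, 1x arrays 2 and 3, 3x arrays 1 and 2, and 3x arrays 3 and 4. Closeness was uneven: the SD of log2 differences was 0.30 to 0.33 within the no-salt subset and 0.33 within each 3x subset. Between 1x arrays 2 and 3 it was 0.46, slightly above the 0.42 to 0.45 between no-salt array 1 and the rest of its group. With each subset averaged to 1 sample, limma called none of the 10 in 1x salt, where 1 had an unadjusted p below 0.05, and ELF4 alone passed in 3x salt (2.14, adjusted p = 0.0395). Of all 23458 genes tested, this averaging left 2 calls in 1x salt and 2218 in 3x salt, beside 3962 and 12067 in the main fit. The loss of calls was thus general to the genes tested. LUX was then at 1.82 in 3x salt (0.0863), RVE8 at -1.07 (0.077), PRR9 at -0.99 (0.0945), TOC1 at 0.91 (0.113), PRR5 at 1.01 (0.146) and CCA1 at -0.76 (0.19), so the sizes stayed and the calls did not.

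Direct comparison of 3x with 1x salt gave 1 call among the 10, ELF4, beside 38.8% of all genes tested (19.8% higher and 19.0% lower). Over all genes, 51.1% of calls were higher with the main scaling and 64.4% with each array centred on its median. PRR5 was 0.69 higher in 3x salt (95% interval 0.09 to 1.29, adjusted p = 0.0684). It passed without 1x array 3 (1.02, adjusted p = 0.0076) and with median centring (0.78, 0.0309). TOC1 was 0.45 higher (-0.03 to 0.92, adjusted p = 0.124) and LUX 0.37 higher (-0.42 to 1.15, adjusted p = 0.44). For CCA1, LHY, RVE8, PRR9, PRR7 and GI the differences ran from -0.25 to 0.02, and the intervals of CCA1 (-0.64 to 0.49) and LHY (-0.77 to 0.51) leave room for sizeable differences either way. The comparisons with no salt share the no-salt arrays and are therefore given side by side, without an overlap between them.

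**Figure D2:**
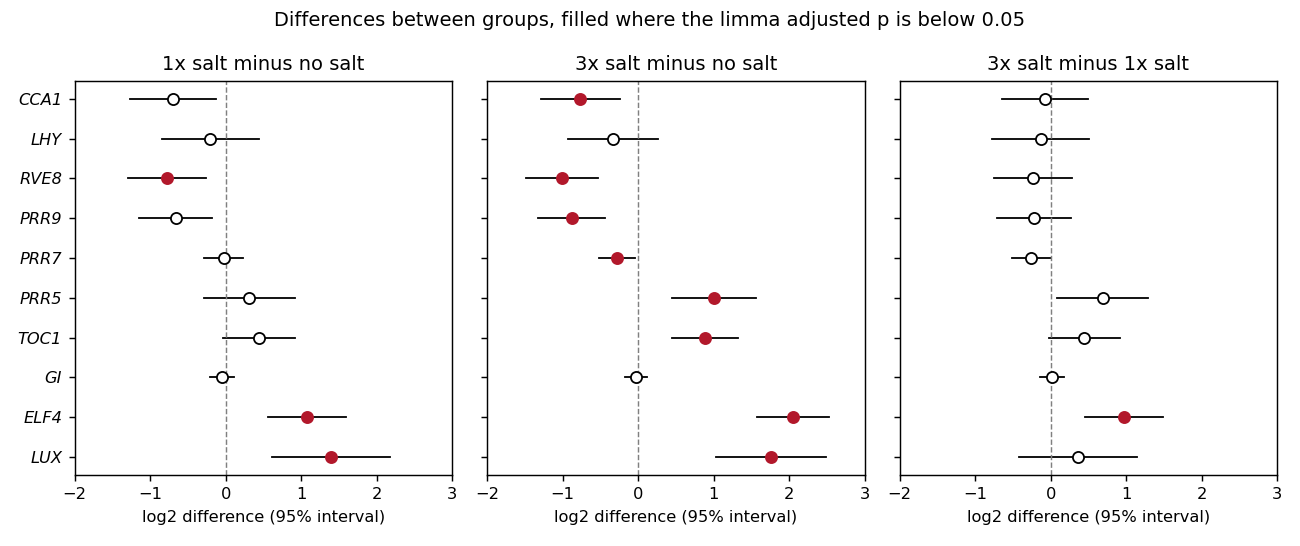
Log2 difference of each clock core gene between groups, with 95% intervals from the fit over 11 arrays, for 1x salt minus no salt, 3x salt minus no salt and 3x salt minus 1x salt. Filled points mark an adjusted p below 0.05, which 3, 8 and 1 of the 10 genes reached.

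The dawn pair CCA1 and LHY can be set against the evening genes TOC1, GI, ELF4 and LUX on each array. On 6 of the 7 salt arrays the mean of the pair was below and the mean of the evening genes above its no-salt mean, and on 1x array 1 both were above it (0.04 and 0.26), while GI itself barely differed. The mean log2 difference of the pair from its no-salt mean, minus the same mean over the 4 evening genes, was 0.17, -0.15, 0.03 and -0.06 on the no-salt arrays. On the 1x salt arrays it was -0.22, -1.78 and -1.50, and on the 3x salt arrays -1.11, -0.99, -2.37 and -2.40. All salt arrays lay below all no-salt arrays, 1x array 1 only narrowly so, and 3x arrays 3 and 4 lay farthest away. The parts differed between arrays of one group: on 3x arrays 1 and 2 the evening genes were 0.95 and 0.90 higher while the pair was at -0.16 and -0.10. On 3x arrays 3 and 4 the evening genes were 1.38 and 1.43 higher and the pair was at -0.98 and -0.97. On 1x arrays 2 and 3 the evening genes were 0.92 and 0.97 higher, close to 3x arrays 1 and 2, with the pair at -0.86 and -0.54. The group means were -1.17 (SD 0.83, n = 3) in 1x salt and -1.72 (SD 0.77, n = 4) in 3x salt, and no test is given for this score because its members were chosen with results known.

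**Figure D3:**
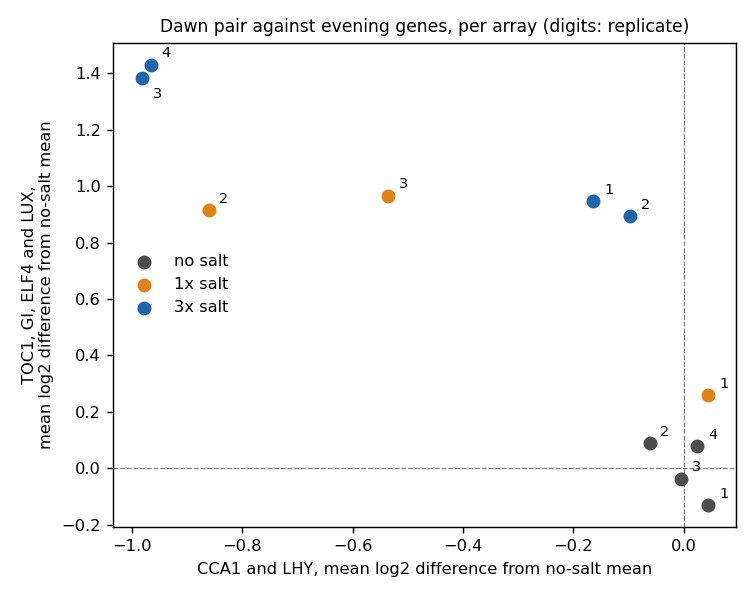
Mean log2 difference from the no-salt mean of CCA1 and LHY (horizontal axis) against that of TOC1, GI, ELF4 and LUX (vertical axis), 1 point per array, coloured by group, with digits giving the replicate. The no-salt arrays and 1x salt array 1 lie at the lower right, 3x salt arrays 1 and 2 lie above them with little change of the dawn pair, and 3x salt arrays 3 and 4 lie at the upper left.

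Arrays lay on 6 slides, and some slides held more than 1 group. On slide 1, ELF4 was 0.92 higher in 1x salt and 2.00 higher in 3x salt than in no salt, and RVE8 was at -0.62 and -0.73. On slide 2, 1x minus no salt was 1.06 for ELF4, 1.79 for LUX, -0.82 for CCA1 and -1.08 for RVE8, and on slide 4 it was 1.30, 1.90, -0.85 and -0.87. LUX in 1x salt was smaller on slide 1, at 0.57, and PRR5 was -0.44 there against 0.55 and 0.93 on slides 2 and 4. On slide 6, 3x minus no salt was 2.40 for ELF4, 2.09 for LUX, -1.33 for CCA1 and -1.33 for RVE8, beside 2.00, 1.65, -0.35 and -0.73 on slide 1. Direction against no salt was thus shared by all slides that allow the comparison for ELF4, LUX, CCA1, RVE8, PRR9 and TOC1. For TOC1 the 1x salt difference on slide 1 was only 0.04. LHY (0.30, -0.78 and -0.22), PRR5, PRR7 (-0.22, -0.03 and 0.06) and GI (0.03, -0.12 and -0.003) changed sign between slides in 1x salt. With slide as a block, 3 members passed in 1x salt, where PRR9 joined (-0.74, adjusted p = 0.0388) and LUX was lost (1.42, 0.0627), and 7 in 3x salt, without PRR7 (-0.33, 0.0713). Of all 23458 genes tested, 988 passed in 1x salt and 7972 in 3x salt with that block. The slides that hold 3x arrays 2 and 3 held no other group.

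The authors' deposited table, whose normalisation is not given in the sources used here, kept ELF4 and LUX higher on all 7 salt arrays but did not keep the falling genes apart. In it ELF4 was at 11.67, 12.10, 11.68 and 11.78 in no salt, at 12.45, 13.10 and 13.02 in 1x salt, and at 13.68, 13.61, 14.11 and 14.28 in 3x salt. For CCA1 the authors' deposited table gave 10.06, 9.48, 9.33 and 9.10 in no salt, 9.57, 8.59 and 8.49 in 1x salt, and 9.36, 9.04, 8.32 and 7.89 in 3x salt. Array 1 of 1x salt and array 1 of 3x salt thus lay within the no-salt range of CCA1. Both also lay within that of PRR9 in the authors' deposited table, at 9.18 and 9.02 against 8.96 to 9.73 in no salt. For RVE8 in the authors' deposited table, 1x array 1 at 7.78 lay within the no-salt range of 7.67 to 8.13. Limma on the authors' deposited table called 2 members in 1x salt, with RVE8 at -0.74 not passing (adjusted p = 0.147), and 6 in 3x salt, with CCA1 at -0.84 not passing (0.097). Of its 28718 loci, limma called 2622 in 1x salt and 9343 in 3x salt.

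For each member, the tested gene outside the 10 whose values followed it most closely over the 11 arrays was sought by Pearson's r among 19164 genes with a locus. As the arrays fall into 3 groups that differ at many genes, a high r is common and says nothing about shared function. ELF4 was followed most closely by HAI1 (AT5G59220), a clade A PP2C phosphatase of abscisic acid signalling, at r = 0.987, and 1084 genes exceeded 0.9 with it. LUX was closest to ERF53 (AT2G20880) at 0.991, TOC1 to the B-box gene BBX8 (AT5G48250) at 0.993 and PRR5 to AT3G58520 at 0.990. For PRR9 it was AT2G46670 (0.995), for RVE8 the gene KAC1 (AT5G10470, 0.979), for CCA1 AT5G42760 (0.978) and for LHY AT5G40910 (0.940). PRR7 and GI, with little spread over the arrays, had their best values with Toc90 (AT5G20300, 0.921) and FDM5 (AT1G80790, 0.874), and no gene exceeded 0.9 with GI.

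Beyond the core, 59 further clock-related genes were examined in 5 lists, and all were tested. In 1x salt 3 of them rose and 10 fell (22.0%, beside 16.9% of all genes), and in 3x salt 20 rose and 14 fell (57.6%, beside 51.4%). Both counts of rises include CO, which no no-salt array measured well above background. Between 3x and 1x salt 13 were higher and 3 lower in 3x salt (27.1%, beside 38.8%). With 1 array left out, the number of calls ran from 4 (without 1x array 3) to 22 (without 1x array 1) in 1x salt, and from 25 to 36 in 3x salt. In 1x salt it was 7 without 1x array 2, 7, 5, 8 and 7 without no-salt arrays 1 to 4, and between 3x and 1x salt it ran from 10 to 19, with 10 without 1x array 1 or 3x array 4. Over all genes, calls ran from 2277 to 5580 in 1x salt, 10439 to 12766 in 3x salt and 7450 to 9134 between the regimes. All 11 of these settings kept the calls of ELF4-L1, CDF2 and COP1 in 1x salt and 24 of 34 calls in 3x salt. With close arrays averaged, RVE2 and JMJD5 were the 2 that passed in 3x salt, and limma called none in 1x salt, where 10 had an unadjusted p below 0.05. Over all 23458 genes, that averaging left 2218 calls in 3x salt and 2 in 1x salt.

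Among the relatives of CCA1 and RVE8 and their LNK coactivators, 2 of 11 fell in 1x salt and none rose (median -0.22). The shares over all genes were 7.68% lower and 9.21% higher. RVE1 (AT5G17300), which links the clock to auxin in this species, fell by 0.95 and RVE6 by 0.31. In 3x salt 4 of 11 fell and 1 rose, beside 23.6% and 27.9% of all genes (list median -0.14). RVE1 fell by 1.43 (SE 0.23, adjusted p = 0.000605), LNK2 by 0.68, LNK1 by 0.52 and LNK3 by 0.79. RVE2 (AT5G37260) rose by 2.35 (SE 0.24, adjusted p = 5.7e-05). RVE2 was at -3.20, -3.11, -3.43 and -3.37 in no salt, at -3.34, -2.26 and -2.02 in 1x salt, and at -0.71, -0.94, -1.07 and -0.99 in 3x salt. All 3x salt arrays lay far above the rest, and between the regimes RVE2 (1.61) and RVE6 (0.31) were higher in 3x salt. RVE3, RVE4, RVE5 and RVE7 did not pass in either comparison with no salt. RVE6 passed in 1x salt (adjusted p = 0.0437) but not in 3x salt (adjusted p = 0.985).

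In the list of evening complex and PRR relatives, 2 of 7 fell in 1x salt, beside 7.68% of all genes (list median 0.04). These were ELF4-L1, by 0.53, and ELF4-L3, by 0.63, whereas ELF4 itself rose. In 3x salt 3 of 7 rose and none fell, beside 27.9% and 23.6% of all genes (list median 0.14). BOA (AT5G59570), the closest relative of LUX, rose by 1.43 (SE 0.27, adjusted p = 0.00177). PRR3 rose by 0.88 and ELF3, the scaffold of the evening complex, by 0.63 (adjusted p = 0.0262). Between the regimes ELF4-L1 (0.67), ELF4-L3 (0.65), BOA (0.89) and PRR3 (0.86) were higher in 3x salt. PRR3 was at 0.21, 0.19, 0.30 and 0.31 in no salt, at -0.62, 0.72 and 0.73 in 1x salt, and at 0.95, 0.82, 1.38 and 1.39 in 3x salt, so 1x array 1 lay below no salt for it as it did for PRR5.

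F-box proteins and other regulators numbered 15, of which CKB3 rose (0.33) and TIC fell (-0.29) in 1x salt, while 10 rose and none fell in 3x salt (medians 0.13 and 0.36). Over all genes the shares higher and lower were 9.21% and 7.68% in 1x salt, and 27.9% and 23.6% in 3x salt. JMJD5 (AT3G20810), a histone demethylase-like regulator of the clock, rose by 1.40 (SE 0.18, adjusted p = 0.000166). COR27 (AT5G42900) and COR28 (AT4G33980), cold- and light-regulated repressors of PRR5 and TOC1, rose too, COR27 by 2.81 (SE 0.62, adjusted p = 0.00378) and COR28 by 2.52 (SE 0.57, with 0.00438 as its adjusted p). COR27 was at -1.48, -1.11, -1.30 and -1.15 in no salt, at -1.996, 0.85 and 0.74 in 1x salt, and at 0.86, 0.74, 2.27 and 2.34 in 3x salt. For COR27, 1x array 1 lay below all no-salt arrays and 3x arrays 3 and 4 were the highest. CKB3 (0.47), PRMT5 (0.49) and SRR1 (0.33) rose as well, and FKF1, LWD1, LWD2 and XCT rose by 0.27 to 0.40. ZTL and LKP2, the F-box proteins that target TOC1 or its relatives for breakdown, did not pass. Between the regimes PRMT5 (0.67), JMJD5 (0.80), FKF1 (0.49), COR28 (2.07) and SRR1 (0.20) were higher and CHE (-0.87) was lower in 3x salt.

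Of 13 clock outputs, CDF2 (-0.73) and CDF3 (-0.60) fell and CO passed higher in 1x salt, while 7 fell and 2 passed higher in 3x salt (medians -0.20 and -0.43). Beside them, 7.68% of all genes were lower and 9.21% higher in 1x salt, and 23.6% and 27.9% in 3x salt. The CDF factors, which repress CO in the morning, fell together in 3x salt: CDF1 by 1.14 (adjusted p = 0.00567), CDF2 by 0.51, CDF3 by 0.66 and CDF5 by 0.92. No no-salt array measured CO well above background, against 2 of 3 arrays in 1x salt and 4 of 4 in 3x salt. Its mean signal was higher than no salt by at least 1.28-fold in 1x salt and at least 1.43-fold in 3x salt. The 1x salt mean, and so its bound, includes an array not well above background. The limma calls belong to log2 differences of 1.61 (adjusted p = 0.0153) and 1.78 (adjusted p = 0.00169), not to these bounds. Those differences rest on no-salt signals not well above background, so they do not give the size of the rise. CO met the filter of 3 of 11 arrays above background through salt arrays alone. The growth regulator PIF5 fell by 0.84 in 3x salt and was lower in 3x than in 1x salt (-0.61). COL1, COL2 and GRP8 also passed in 3x salt, with COL1 higher and the others lower. GRP7 and the catalase genes CAT2 and CAT3 did not pass in either comparison with no salt.

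Among 13 photoreceptors and light-signalling genes, 1 rose and 3 fell in 1x salt, beside 9.21% and 7.68% of all genes. PHYA rose (0.50) and COP1 (-0.39), HY5 (-0.34) and HYH (-0.85) fell in 1x salt. In 3x salt 4 rose and 3 fell, beside 27.9% and 23.6% of all genes, led by PHYD (0.96, adjusted p = 0.000372), HY5 (-0.35), CRY1 (-0.35), FAR1 (0.29), CRY2 (0.24) and PHYB (0.31), with a list median of -0.02. Between the regimes PHYD (0.83) and FAR1 (0.34) were higher and PHYA (-0.37) lower in 3x salt.

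**Figure D4:**
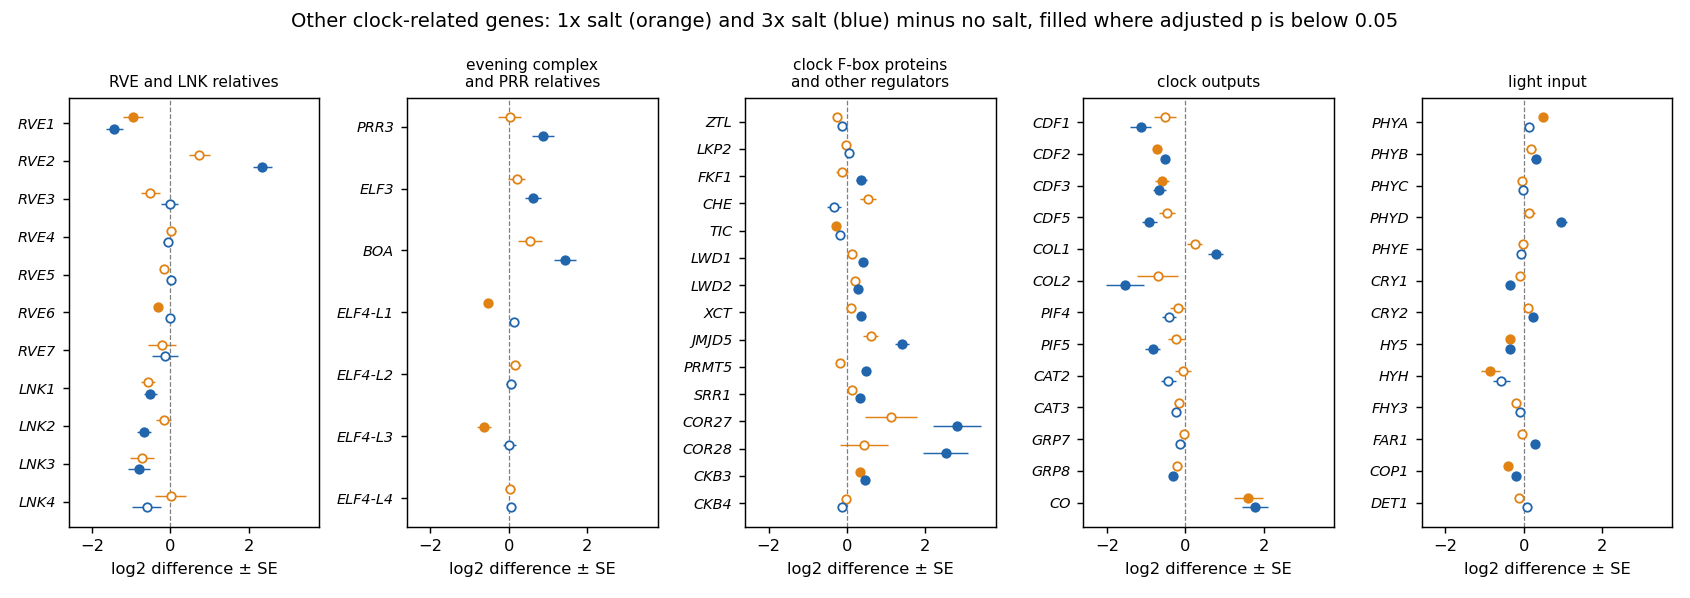
Log2 difference ± SE from no salt of 59 clock-related genes in 5 lists, in 1x salt (orange) and 3x salt (blue), filled where the adjusted p is below 0.05. COR27, COR28 and RVE2 are the highest in 3x salt, followed by CO, BOA and JMJD5, and the CO point rests on dim signals because no no-salt array measured it well above background.

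Markers of other cell types and handling-sensitive genes moved with the groups too. For scale, 9.21% of all genes tested were called higher and 7.68% lower in 1x salt, and 27.9% and 23.6% in 3x salt. Of 12 vascular markers, 10 rose in 1x salt (median 0.78), led by AHA3 (0.85), CESA7 (1.79) and APL (0.52). In 3x salt 2 rose and 2 fell (median 0.12), led by XCP1 (-1.53), AHA3 (0.63) and SEOR1 (-0.85). The log2 of the summed signal of the 12 ran from 5.98 to 6.33 in no salt, from 6.74 to 7.06 in 1x salt and from 6.42 to 6.54 in 3x salt. Such a sum mostly follows the brightest markers. Photosynthesis genes rich in mesophyll fell in 3x salt, 7 of 8 (median -0.94), with CA1 at -2.32, and their summed level ran from 9.18 to 9.51 in no salt, from 9.22 to 9.93 in 1x salt and from 8.42 to 8.57 in 3x salt. Of the 10 guard cell markers, 2 rose in 1x salt, GORK and TGG1. In 3x salt 1 rose, GORK by 1.40, and 4 fell, among them KAT1 at -0.94 and MYB60 at -1.33. Their summed level was 5.35 to 5.69 in no salt, 5.82 to 6.17 in 1x salt and 5.03 to 5.41 in 3x salt. Of 7 tested pavement cell and trichome markers, 3 rose in 1x salt, and 1 rose and 3 fell in 3x salt, with summed levels of 6.88 to 7.13, 7.23 to 7.35 and 6.96 to 7.12. Rapid response genes fell, 8 of 12 in 1x salt (median -1.72) and 10 of 12 in 3x salt (median -1.78), among them the cold-response factor CBF1 at -2.46 and -1.88. GL3, a trichome marker, was above background on 2 of the 11 arrays and was not tested, and no other marker of these lists was at background. The part of these lists in the clock gene differences was not tested.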

How the data were processed

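Per the file headers, the arrays were read with Agilent Feature Extraction 11.5.1.1, and the deposited intensity values are the software's processed signal, with raw median intensities and flags per spot; no source used here states the steps behind it. The authors' deposited table holds normalised log2 values per locus; its log2 scale was judged from the values, its column medians were 8.29 to 8.34, and no source used here states its background correction, normalisation or centring. Each array correlated best with its own column (0.79 to 0.93, against at most 0.84 for another).

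Probes were matched by name to loci of a gene table of assembly TAIR10.1 (34348 of 43603), while the file headers name TAIR10. No coordinates are given. Log2 processed signals were set relative to the 75th percentile of all spots except controls on that array, outlier spots were then removed, repeat spots were averaged, and the brightest probe stood for a gene. Genes above background on at least 3 of 11 arrays were kept (23458 of 34290). Limma 3.58.1 under R 4.3.3 fitted all arrays together, with 8 residual degrees of freedom and Benjamini-Hochberg adjustment over all genes; the threshold was 0.05. The number of arrays limits the precision. For a gene not above background in a group, "at least" sets the brighter mean against the higher of the lowest signal above background and the probe's own. On simulated data for 23239 genes, the fit recovered 67% of log2 changes of 1 in 1x against no salt, 63% in 3x against no salt and 62% in 3x against 1x salt. For log2 changes of 0.5 it recovered 24%, 22% and 17%. The simulation drew independent noise for each array and changed 200 genes, unlike these arrays with their close subsets and many calls, so recovery here may differ. Slide barcodes gave the slides. Same-numbered samples deviated together only in part (correlations -0.12 to 0.30), and the labels tie no samples by number, so they were not treated as pairs. Figures used matplotlib 3.10.9.

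The members, lists and tests were chosen with earlier results of these data known. All 10 members were named; of other lists, up to 6 calls per comparison by smallest adjusted p, up to 3 for marker lists; a few members not passing were named after their values were seen. Background correction by normexp used the median signal, since the files used hold no mean signal.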

Additional observations from a re-analysis of the deposited data

Results flagged for a closer look

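In groups of 4 arrays, a value was picked out where its gap to the nearest other array, as a share of the group's range, exceeded Dixon's 95% critical value, and 6 of 92 groups examined met this, where chance gives about 1 in 20. PRR9 in no salt had array 1 at -1.33 and the others at -1.79 to -1.71 (gap over range 0.835). CDF2 in no salt had array 1 at 0.18 against -0.06 to -0.04 (0.898). CDF3 in no salt had array 1 at 3.39 against 3.10 to 3.14 (0.849), and ELF3 in no salt array 1 at 0.78 against 0.63 to 0.64 (0.886). In 3x salt, SRR1 had array 2 at -0.74 against -0.86 to -0.85 (0.907), and TIC array 3 at 2.48 against 2.57 (0.953).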

How the results depend on the processing

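Over the other settings that keep all arrays, 330 values of the 10 genes kept their side of the threshold, 23 lost a call, 6 gained one and 1 call changed sign, PRR7 in 3x salt with the authors' table (0.019). Of the 330, 8 that were not called changed sign, 6 for GI and 1 each for PRR7 and CCA1. Genes called in 1x salt numbered 2622 with the authors' table, 988 with slide as a fixed block and 2 with close arrays averaged; in 3x salt 7972 and 2218, and between the regimes 2783 and 511, with the slide block and with averaging. Members called with averaging were 0, 1 and 0 in the 3 comparisons, and between the regimes 2 with median centring and 2 with normexp. Averaging leaves 6 samples. Calls among the 59 other clock genes in 1x salt numbered 6 with no filter, 7 with only the compared groups, 2 with the slide block and 0 with averaging. In 3x salt they numbered 2 with averaging, and between the regimes 9 with the authors' table, 7 with only the compared groups, 3 with the slide block and 0 with averaging. The causes were not tested. Leaving out 1 array gave 2277 to 5580, 10439 to 12766 and 7450 to 9134 genes called, 0 to 7, 6 to 8 and 1 to 2 members, and 4 to 22, 25 to 36 and 10 to 19 other clock genes. It turned the sign of 13 uncalled member values, among them PRR5 in 1x salt (-0.019 without 1x array 3), LHY in 1x salt (0.085 without 1x array 2) and LUX between the regimes (-0.14 without 1x array 1). The dawn minus evening difference then ran from -1.64 to -0.86 in 1x salt and from -1.96 to -1.49 in 3x salt. With the replicate number as a block, 3269, 12613 and 9083 genes and 4, 8 and 1 members passed, with PRR9 added in 1x salt (-0.75, adjusted p = 0.013); the numbers do not pair the samples by the labels. Normexp used the median signal. Dim signal limits CO.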
